A study of Mus musculus with 3 samples.

Results

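The genes described here are 54 regulators and effectors of the interferon response, taken by name from a list. They are transcription factors, interferon receptors, nucleic acid sensors and the antiviral proteins that interferons induce. The list was drawn up with earlier results of these data known. All 54 were found among the 51803 gene symbols of the series, and 47 of them were over 0.3 FPKM in at least 1 library, the level above which the study called a gene expressed. FPKM is the number of sequenced fragments scaled to transcript length and to the depth of the library, and the values of all transcripts of a gene were summed.

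mpkCCD is a mouse cell line of the kidney collecting duct with features of principal cells, re-cloned here for high expression of the water channel gene *Aqp2* and used at passages 18 to 32. Each of the 3 lines carried a lentiviral hairpin and was selected with puromycin for stable expression: shCtrl held a non-targeting hairpin, and shGR1 and shGR2 held different hairpins against *Nr3c1*, the gene of the glucocorticoid receptor. All lines were grown on permeable supports, kept dexamethasone, a synthetic glucocorticoid, after serum and the other supplements were withdrawn, and received vehicle without the vasopressin analog dDAVP. One library was sequenced per line, so no line had a replicate, and shGR1 and shGR2 served as the 2 libraries of receptor knockdown against the single shCtrl library.

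*Nr3c1* was at 30.2 FPKM in shCtrl, 4.41 FPKM in shGR1 and 9.13 FPKM in shGR2, which put the targeted transcript lower in both knockdown lines. Sets of 3 values below follow this order of shCtrl, shGR1 and shGR2. From the smallest steps of the FPKM values, 1 fragment on a transcript of 1 kb was worth roughly 0.0388 FPKM in shCtrl, 0.0338 FPKM in shGR1 and 0.0288 FPKM in shGR2, so shGR2 was the deepest library. The fragment numbers given below for rare transcripts rest on this rough estimate and on 1 length per gene, averaged over its transcripts and the libraries. They are thus less sure where long and short transcripts hold different shares in each library, as for *Zbp1* and *Mx2*. The 6 epithelial markers summed to 1573, 1663 and 1651 FPKM. Of 14 principal cell genes 10 were expressed, and the 14 summed to 440, 190 and 232 FPKM. Most of that difference was *Scnn1a* (168, 21.7 and 27.2 FPKM). *Aqp2* (9.55, 0.751 and 2.14 FPKM), *Avpr2* (28.5, 12.8 and 12.1 FPKM), *Fxyd4* (30.7, 1.07 and 3.76 FPKM), *Scnn1g*, *Gata3* and *Tfcp2l1* were also lower in both knockdown lines. Of the other expressed ones, *Aqp3* (6.49, 9.11 and 8.97 FPKM) was higher in both. *Hsd11b2* (27.8, 19.5 and 55.8 FPKM) and *Aqp4* (0.52, 0.387 and 0.614 FPKM) were lower in shGR1 and higher in shGR2. Of 12 leukocyte markers 6 were expressed, with sums of 22.6, 15.3 and 16.8 FPKM. Without *Csf1r* the other 11 leukocyte markers summed to 4.36, 4.32 and 5.69 FPKM, and *Ptprc*, *Cd3e* and *Cd79a* were under 0.3 FPKM in every library. The myeloid markers *Cd68* (2.23, 2.67 and 2.75 FPKM), *Tyrobp* (0.181, 0.304 and 0.511 FPKM) and *Aif1* (0.314, 0.341 and 0.782 FPKM) were higher in both knockdown lines. *Csf1r* (18.2, 11.0 and 11.1 FPKM), *Coro1a* (0.567, 0.201 and 0.281 FPKM) and *Ptprc* (0.189, 0.103 and 0.166 FPKM) were lower in both. The fibroblast markers, 6 of 7 expressed, summed to 9.75, 6.19 and 14.0 FPKM, and none of the 6 endothelial markers was expressed. In bulk RNA, fewer cells of a type and less RNA per cell cannot be told apart.

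Interferons act in a loop. Viral RNA or DNA is bound by sensors such as RIG-I and MDA5, whose adaptors activate IRF3 and IRF7 and so the genes of type I interferons. Type I interferons bind IFNAR1 and IFNAR2 and activate the complex ISGF3, which contains STAT2 and IRF9 and binds the interferon-stimulated response element (ISRE) before the antiviral genes. Interferon gamma binds IFNGR1 and IFNGR2 and acts through the GAS element. Renal tubule cells express this machinery without being immune cells, and glucocorticoids are known to restrain parts of it.

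The letters of these elements were looked for in the 250 bases before the start site of 43 members that had an entry among the RefSeq promoters (GRCm38.p6), on both strands. The ISRE core, GAAA and GAAA parted by any 2 bases, was present in 16 of 43 members (37.2%) and in 3.46% of the 27025 symbols with a promoter. The GAS letters TTCNNNGAA, which read the same on both strands, were present in 12 members (27.9%) against 8.13% of symbols. The glucocorticoid element, searched as AGAACA and TGTTC parted by any 3 bases, was in 0 of 43 members and in 0.0333% of symbols. At that share 0 was the likely count for any 43 genes. The count says only that these letters are not in these windows. The windows of 6 members are shown because they place the elements beside the transcripts whose levels follow. Capitals mark the ISRE core, written with GAAA or, on the other strand, with TTTC at its ends, and in *Isg20* the GAS letters.
Ifit1, plus strand, chr19:34640759-34640838: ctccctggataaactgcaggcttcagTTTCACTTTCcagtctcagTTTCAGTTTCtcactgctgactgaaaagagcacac
Ifit3, plus strand, chr19:34583355-34583434: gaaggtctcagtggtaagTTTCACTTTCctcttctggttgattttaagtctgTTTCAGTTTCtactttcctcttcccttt
Isg15, minus strand, chr4:156200846-156200925: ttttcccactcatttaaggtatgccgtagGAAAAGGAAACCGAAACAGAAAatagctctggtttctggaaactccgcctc
Rsad2, minus strand, chr12:26456528-26456607: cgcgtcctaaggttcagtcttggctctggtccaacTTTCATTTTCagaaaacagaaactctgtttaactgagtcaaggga
Oas1a, minus strand, chr5:120907526-120907605: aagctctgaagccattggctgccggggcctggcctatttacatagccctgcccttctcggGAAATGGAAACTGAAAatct
Isg20, plus strand, chr7:78913315-78913394: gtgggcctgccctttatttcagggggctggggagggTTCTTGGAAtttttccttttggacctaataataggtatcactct

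The windows of *Ifit1* and *Ifit3* each hold the same 2 cores, TTTCACTTTC and TTTCAGTTTC, at different spacing. That of *Isg15* holds 3 cores that overlap into 1 run, that of *Oas1a* holds 2 overlapping cores just before the start site, and that of *Rsad2* holds 1. A match of letters describes the sequence and does not show that a factor binds there.

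**Figure D1:**
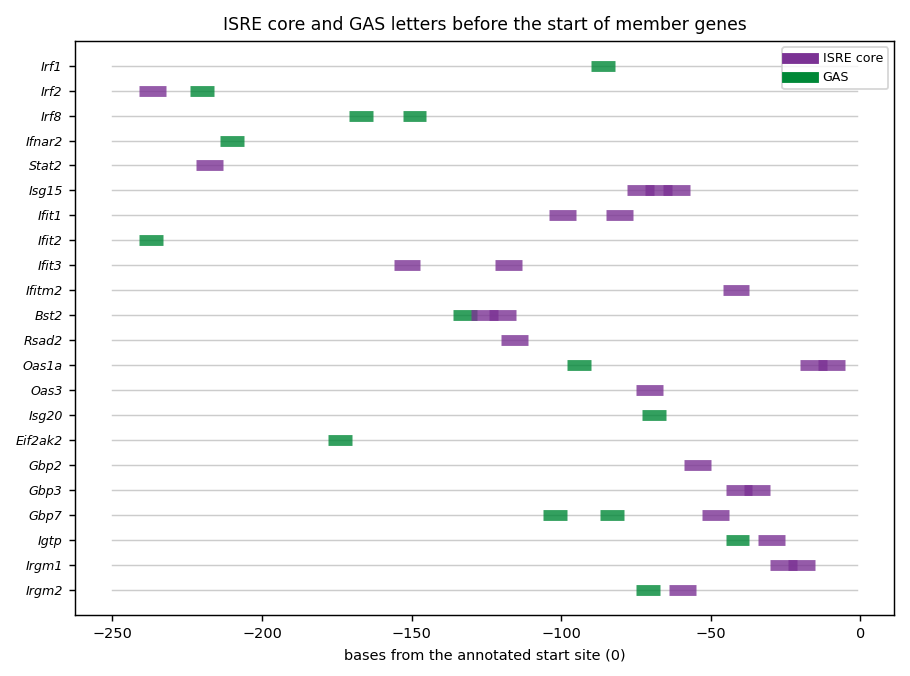
Position of ISRE core letters (purple) and GAS letters (green) in the 250 bases before the annotated start site of the members that hold either, 1 row per gene, in bases from the start site. The matches lie at different distances, and *Bst2*, *Oas1a*, *Igtp*, *Irgm2*, *Irf2* and *Gbp7* hold both.

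Set against shCtrl, the members lay on both sides of the control. By the rule of the study, a lower gene has a ratio below 1 to shCtrl in each of the 2 lines and a higher gene a ratio above 1, and both ratios share the same shCtrl library. Of the 47 expressed members, 15 were lower and 24 were higher, and 8 lay on opposite sides of the control. Among all 15438 expressed genes 43.8% were lower and 31.8% were higher. With ratios centred on their median these became 38.1% and 37.6%, and after quantile normalization 35.5% and 39.98%. All 24 higher members kept that direction under each of these scalings and with the length trend removed, as did 13 of the 15 lower ones, the exceptions being *Ifitm2* and *Igtp*. The median log2 ratio of the members was 0.17 in shGR1 and 0.00 in shGR2, against -0.03 and -0.07 over all expressed genes. In shGR1 32 members lay above the control and 15 below. In shGR2 24 lay above and 23 below.

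At least a 1.5-fold difference in the same direction in both lines was seen for 9 higher members, *Irf7*, *Usp18*, *Ifit1*, *Mx2*, *Oasl1*, *Oasl2*, *Rsad2*, *Rtp4* and *Zbp1*, and for 2 lower ones, *Isg20* and *Oas2*. Of all expressed genes 6.28% were that much higher and 7.96% that much lower. Of these 9 genes 5 (*Usp18*, *Mx2*, *Oasl1*, *Rsad2* and *Zbp1*) passed 0.3 FPKM only in a knockdown line and so had to be higher there to be counted. In the same way *Oas2* passed only in shCtrl, where it was highest. Of the 42 members over 0.3 FPKM in shCtrl itself, 15 were lower and 19 higher, beside 46.7% and 30.2% of genes chosen in the same way. Of these 42, 4 were at least 1.5-fold higher (*Irf7*, *Ifit1*, *Oasl2* and *Rtp4*) and 2 lower, beside 3.04% and 8.5% of genes.

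The 9 members at least 1.5-fold higher all had a mean level under 3 FPKM. Of the 20 expressed members with a mean under 3 FPKM, 12 were higher and 4 lower, and 9 were at least 1.5-fold higher and 1 lower. Of all expressed genes under 3 FPKM, 31.1% were higher, 37.3% lower, 15.8% at least 1.5-fold higher and 15.1% at least 1.5-fold lower. Of the 20 members, *Usp18*, *Mx2*, *Oasl1*, *Rsad2* and *Zbp1* passed 0.3 FPKM only in a knockdown line, and *Oas2* and *Gbp2* only in shCtrl. The division at 3 FPKM was chosen after seeing the data and was not repeated for genes over 0.3 FPKM in shCtrl. Of the 27 members at 3 FPKM or more, 12 were higher and 11 lower, none was 1.5-fold higher and 1 was that much lower. Among genes of that abundance 32% were higher, 46.6% lower, 2.11% at least 1.5-fold higher and 4.82% at least 1.5-fold lower.

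**Figure D2:**
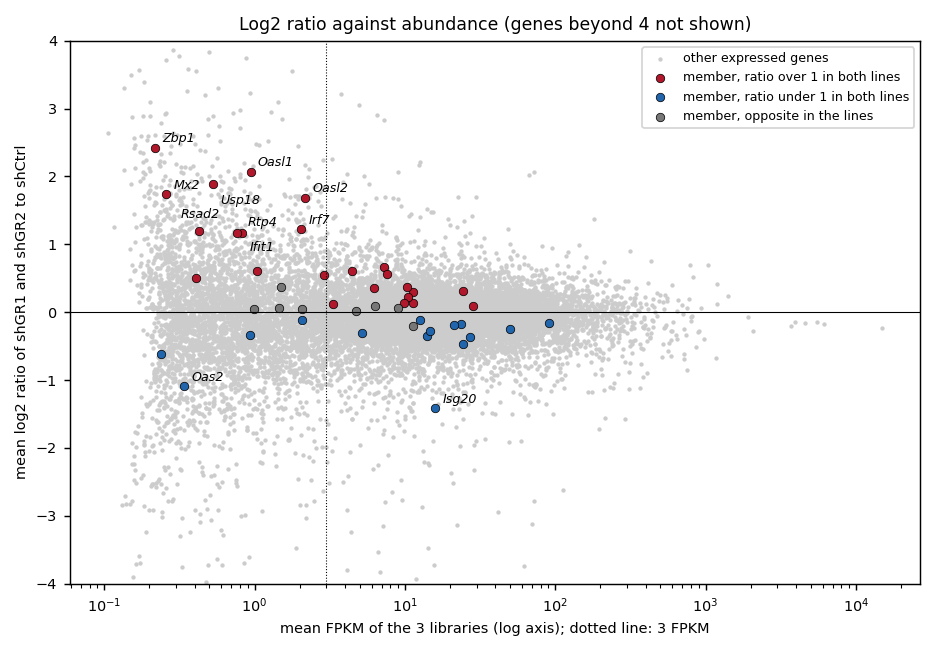
Mean log2 ratio of shGR1 and shGR2 to shCtrl against mean FPKM of the 3 libraries (log axis) for the 15025 expressed genes above 0 in every library (grey) and the 47 expressed members (coloured by direction). The 9 members that were at least 1.5-fold higher lie left of 3 FPKM, where the grey cloud is widest, and *Isg20* lies at the lower edge of the cloud at a higher abundance; 22 genes beyond a mean log2 ratio of 4 are not shown.

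Limma on log2(FPKM + 0.1), with 1 residual degree of freedom, called 0 of 15438 genes at an adjusted p under 0.05. At an unadjusted p under 0.05 it gave 1458 lower genes (9.44%) and 699 higher genes (4.53%). Among the members the unadjusted test was passed by 3 lower genes, *Irf3*, *Isg20* and *Mavs*, and by 4 higher genes, *Irf7*, *Oasl1*, *Oasl2* and *Usp18*. No difference of a single member passed the adjusted test, so "higher" and "lower" in what follows are positions in these 3 libraries.

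The interferon regulatory factors are the transcription factors that switch interferon genes and their targets on or off. Of the 7 expressed, 4 were lower, 2 higher and 1 opposite. *Irf7*, whose product drives the amplification of type I interferon genes, was at 1.08 FPKM in shCtrl, 2.38 FPKM in shGR1 and 2.68 FPKM in shGR2, with both knockdown libraries above the control and close to each other. Its mean log2 ratio was 1.22 ± 0.12 (SD, n = 2 knockdown lines), with limma's unadjusted p = 0.0196 and adjusted p = 0.297 (0.157 to 0.406 over the settings tried). The gene lies on chromosome 7 from 141262706 to 141266481 (GRCm38, minus strand), and its levels correspond to about 43, 108 and 143 fragments. The coding transcript Irf7-201 made up 0.476, 1.26 and 0.759 FPKM of these levels. A transcript with a retained intron, Irf7-205, was listed at 0 in shCtrl and at 0.518 and 0.933 FPKM in the knockdown lines. The higher total in shGR2 thus holds more of the transcript that encodes no complete protein than that in shGR1.

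*Irf8*, best known from myeloid cells, was at 3.26 FPKM in shCtrl, 6.07 FPKM in shGR1 and 4.09 FPKM in shGR2. It was thus higher in both lines but 1.86-fold in shGR1 and 1.25-fold in shGR2. Of the leukocyte markers, *Cd68*, *Tyrobp* and *Aif1* were also higher in both lines, with shGR2 the highest. *Csf1r*, *Coro1a* and *Ptprc* were lower in both. The part of such cells in the *Irf8* level was not tested. The abundant factors *Irf3* and *Irf1*, by contrast, were lower. *Irf3*, which the kinases downstream of the sensors activate, was at 32.1, 26.1 and 23.7 FPKM, with a mean log2 of the ratios of -0.37 ± 0.10 (SD, n = 2 knockdown lines), limma's unadjusted p = 0.048 and adjusted p = 0.353 (0.282 to 0.436). Its largest transcripts retain an intron, Irf3-207 (5.79, 5.37 and 5.81 FPKM) and Irf3-208 (6.53, 7.05 and 4.19 FPKM). Of those encoding 419 residues, Irf3-201 was at 5.27, 2.95 and 3.01 FPKM and Irf3-213 at 4.47, 4.21 and 4.69 FPKM, so the coding forms did not all share the direction. *Irf1*, an activator of interferon gamma targets, was at 16.3, 13.1 and 12.4 FPKM. Both genes had the control as their highest library.

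*Irf2*, an antagonist of IRF1, was at 13.3, 12.6 and 12.1 FPKM, a smaller step in the same order. *Irf5* was at 1.09, 0.823 and 0.896 FPKM, and 14.1% of its exon bases overlap *Tnpo3* on the opposite strand, a gene at 39.2 to 43.1 FPKM, so its level is uncertain where the counting did not use strand. *Irf9*, the DNA-binding subunit of ISGF3, was at 12.3, 12.7 and 8.95 FPKM, with shGR1 at the level of the control and only shGR2 lower.

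The receptor chains and STAT2, the partner of IRF9, differed little as genes. *Ifnar1* was at 27.3, 30.3 and 27.7 FPKM and *Ifnar2* at 25.7, 22.8 and 22.8 FPKM, so that the chains of the type I receptor lay on different sides of the control. The chains of the interferon gamma receptor did the same: *Ifngr1* was at 22.9, 20.8 and 19.5 FPKM and *Ifngr2* at 10.7, 11.7 and 11.7 FPKM. *Stat2* was at 9.75, 14.2 and 10.2 FPKM, with only shGR1 clearly apart. Of these 5 genes 2 were lower and 3 higher, none by 1.5-fold in both lines.

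The transcripts of *Ifnar2* were less alike than the gene. The long form Ifnar2-201, which encodes 513 residues, was at 8.65 FPKM in shCtrl, 3.57 FPKM in shGR1 and 4.32 FPKM in shGR2. The short form Ifnar2-203, which encodes 248 residues, was at 14.1, 15.8 and 16.6 FPKM. In mouse, a soluble form of the receptor chain that lacks the membrane anchor and the cytoplasmic part is known beside the full-length signalling form. The mean log2 ratio was -1.14 ± 0.19 for the long form and 0.21 ± 0.05 for the short one (SD, n = 2 knockdown lines), and the long form held 33.7% of the gene in shCtrl against 15.7% and 18.9% in the knockdown lines. The FPKM of transcripts are estimates that Cufflinks divides among overlapping isoforms, and 25.3% of the 50-base stretches of the short form also occur in the gene *Gm21970*, which was at 0 to 0.109 FPKM. No test of the transcripts was made.

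**Figure D3:**
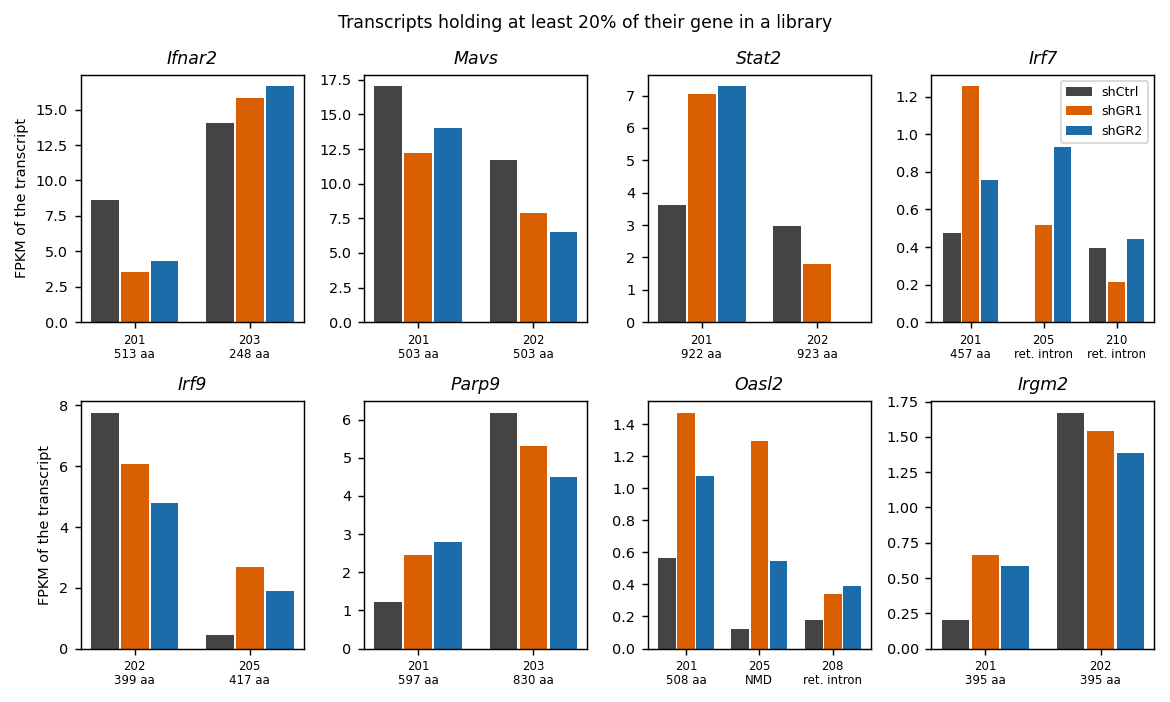
FPKM of the transcripts that held at least 20% of their gene in some library, for 8 members, as bars from 0 for shCtrl (grey), shGR1 (orange) and shGR2 (blue), with the transcript number and the length of its protein or its class under each pair of axes. The long form of *Ifnar2* was lower and the short form slightly higher in both knockdown lines, and in *Irf9* and *Parp9* the minor transcript was higher while the major one was lower.

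Such a split was seen in other regulators, and 22 of the 47 expressed members had at least 2 transcripts holding 20% of the gene in some library, 52 transcripts in all. For *Irf9*, the major transcript Irf9-202 (399 residues) was at 7.76, 6.07 and 4.79 FPKM, and the minor Irf9-205 (417 residues) was at 0.437, 2.67 and 1.89 FPKM. For *Stat2*, Stat2-201 (922 residues) was at 3.63, 7.05 and 7.28 FPKM and Stat2-202 (923 residues) at 2.96, 1.79 and 0.00418 FPKM. How many fragments tell the 2 *Stat2* transcripts apart is not known here.

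The sensors and adaptors that recognise viral nucleic acid were mostly at or above the control level, with 5 of 6 higher and 1 lower. The lower gene was *Mavs*, the mitochondrial adaptor of the RNA sensors, at 30.1 FPKM in shCtrl, 21.8 FPKM in shGR1 and 21.6 FPKM in shGR2. Both knockdown libraries lay below the control by about the same amount, with a mean log2 of the ratios of -0.47 ± 0.01 (SD, n = 2 knockdown lines), limma's unadjusted p = 0.0158 and adjusted p = 0.288 (0.177 to 0.395). Its transcripts Mavs-201 (17.0, 12.2 and 14.0 FPKM) and Mavs-202 (11.7, 7.87 and 6.49 FPKM), which encode the same 503 residues, were both lower.

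The RNA helicases that signal through MAVS lay near or above the control. *Ddx58*, which encodes RIG-I, was at 9.32, 9.40 and 12.7 FPKM, apart from the control in shGR2 only. *Ifih1*, which encodes MDA5, was at 3.15, 3.32 and 3.54 FPKM. *Dhx58*, which encodes the regulatory helicase LGP2, was at 0.315, 0.503 and 0.399 FPKM, just over the threshold and about 15, 27 and 25 fragments. *Tmem173*, which encodes STING, the adaptor of the DNA sensor cGAS, was at 5.21, 5.74 and 7.74 FPKM, again with shGR2 the highest.

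*Zbp1*, a sensor of Z-form nucleic acid that can start necroptosis, was at 0.0528 FPKM in shCtrl, 0.201 FPKM in shGR1 and 0.398 FPKM in shGR2. With a single length for the gene these levels are about 2, 8 and 19 fragments, and only shGR2 was over 0.3 FPKM. The mean log2 ratio was 2.42 ± 0.70 (SD, n = 2 knockdown lines), with limma's unadjusted p = 0.105 and adjusted p = 0.434 (0.412 to 0.519), so this ratio rests on a handful of fragments in the control. The gene lies on chromosome 2 from 173206612 to 173218923 (minus strand). Zbp1-203 (3325 bases, retained intron) was at 0.0293 FPKM in shCtrl and listed at 0 in the knockdown lines. Zbp1-202 (770 bases) was listed at 0 in shCtrl and at 0.0753 and 0.304 FPKM in the knockdown lines. Zbp1-201 (1989 bases) was at 0.0235, 0.126 and 0.0938 FPKM. In shGR2 76.4% of the level was thus assigned to the shortest transcript, on which 1 fragment is worth more FPKM than on a longer one. Both the fragment numbers and the ratio of the summed FPKM therefore depend on how fragments were divided among these transcripts.

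ISG15 is a ubiquitin-like protein that interferon-treated cells couple to other proteins, and USP18 removes it and also dampens signalling at IFNAR2. *Isg15*, whose window above holds 3 overlapping cores, was at 2.197 FPKM in shCtrl, 3.62 FPKM in shGR1 and 2.83 FPKM in shGR2. *Usp18* was at 0.189, 0.718 and 0.687 FPKM, about 8, 33 and 37 fragments, with the knockdown libraries close together and well above the control. Its mean log2 ratio was 1.89 ± 0.04 (SD, n = 2 knockdown lines), the smallest spread among the 9, with limma's unadjusted p = 0.029 and adjusted p = 0.313 (0.258 to 0.405). As for the other members, both ratios share the shCtrl level, so this SD leaves out the uncertainty of its about 8 fragments. The gene lies on chromosome 6 from 121245906 to 121270917 (plus strand), and its main transcript Usp18-201 alone was at 0.189, 0.595 and 0.489 FPKM.

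Other parts of the ISG15 system did not share this direction. *Trim25*, a ligase that activates RIG-I, was at 16.5, 14.7 and 12.5 FPKM. *Uba7*, which is no member but encodes the enzyme that charges ISG15 in the first step of coupling, was at 10.03, 4.94 and 4.87 FPKM, with a mean log2 of the ratios of -1.03 ± 0.01 (SD, n = 2 knockdown lines), limma's unadjusted p = 0.00666 and adjusted p = 0.279. The modifier and its protease were thus higher in the knockdown libraries, and the activating enzyme lower. Of the other pathway genes looked up, *Ube2l6* (3.84, 4.77 and 3.07 FPKM) and *Herc6* (4.81, 4.14 and 4.82 FPKM) were neither lower nor higher in both lines.

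The IFIT proteins bind viral RNA that lacks the marks of cellular mRNA. *Ifit1* was at 0.453 FPKM in shCtrl, 0.971 FPKM in shGR1 and 1.06 FPKM in shGR2, about 31, 76 and 98 fragments. The knockdown libraries agreed closely, with the mean of their log2 ratios at 1.16 ± 0.09 (SD, n = 2 knockdown lines), limma's unadjusted p = 0.0548 and adjusted p = 0.365 (0.323 to 0.441). *Ifit1* lies on chromosome 19 from 34640871 to 34650009 (plus strand), next to *Ifit3* and *Ifit2*.

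*Ifit3* had the same order at 0.768, 1.09 and 1.24 FPKM, but 51.2% of its 50-base stretches also occur in another gene, mostly *Ifit3b*, so its own level is uncertain. *Ifit2*, the most abundant of the 3, was at 6.02, 7.54 and 5.46 FPKM, with the knockdown lines on either side of the control. *Ifi27* was likewise split, at 4.44, 6.70 and 3.04 FPKM. *Ifi35* was at 5.95, 5.25 and 4.43 FPKM and so lower in both. Of this group 2 genes were thus higher, 1 lower and 2 opposite.

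Among membrane and other restriction factors, *Rsad2* and *Rtp4* were past 1.5-fold. *Rsad2*, which encodes viperin, an enzyme that makes a chain-terminating nucleotide, was at 0.226, 0.434 and 0.617 FPKM, about 22, 49 and 81 fragments. Its mean log2 ratio was 1.19 ± 0.36 (SD, n = 2 knockdown lines), with limma's unadjusted p = 0.13 and adjusted p = 0.458 (0.433 to 0.523). It lies on chromosome 12 from 26442746 to 26456452 (minus strand).

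*Rtp4*, which encodes a receptor-transporting protein that restricts flaviviruses, was at 0.415, 1.08 and 0.799 FPKM, about 13, 38 and 33 fragments. The mean log2 ratio was 1.16 ± 0.30 (SD, n = 2 knockdown lines), with limma's unadjusted p = 0.0797 and adjusted p = 0.403 (0.357 to 0.48). The transcript Rtp4-203 accounted for the higher level at 0.167, 0.945 and 0.541 FPKM, while Rtp4-201, which encodes a protein of the same 249 residues, was at 0.175, 0.131 and 0.101 FPKM. *Rtp4* lies on chromosome 16 from 23520291 to 23614222 (plus strand).

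The IFITM proteins block the entry of enveloped viruses. *Ifitm3* was at 5.23, 9.40 and 7.27 FPKM, 1.80-fold and 1.39-fold above the control. *Ifitm2* was the most abundant member at 98.2, 87.9 and 88.2 FPKM and slightly lower in both lines, though not under every scaling, and 48.5% of its 50-base stretches also occur in another gene, mostly *Gm45717*, which was at 0 to 0.111 FPKM. The neighbouring paralogs thus lay on different sides of the control in the FPKM as deposited. *Bst2*, which encodes tetherin, was at 8.48, 14.1 and 8.48 FPKM, and the difference of shGR2 from the control was nil although it counts as higher by the rule. *Samd9l*, a brake on translation in infected cells, was at 55.7, 48.2 and 45.9 FPKM and *Xaf1* at 0.971, 1.05 and 0.9598 FPKM. *Samd9l* was thus lower and *Xaf1* at the control level.

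**Figure D4:**
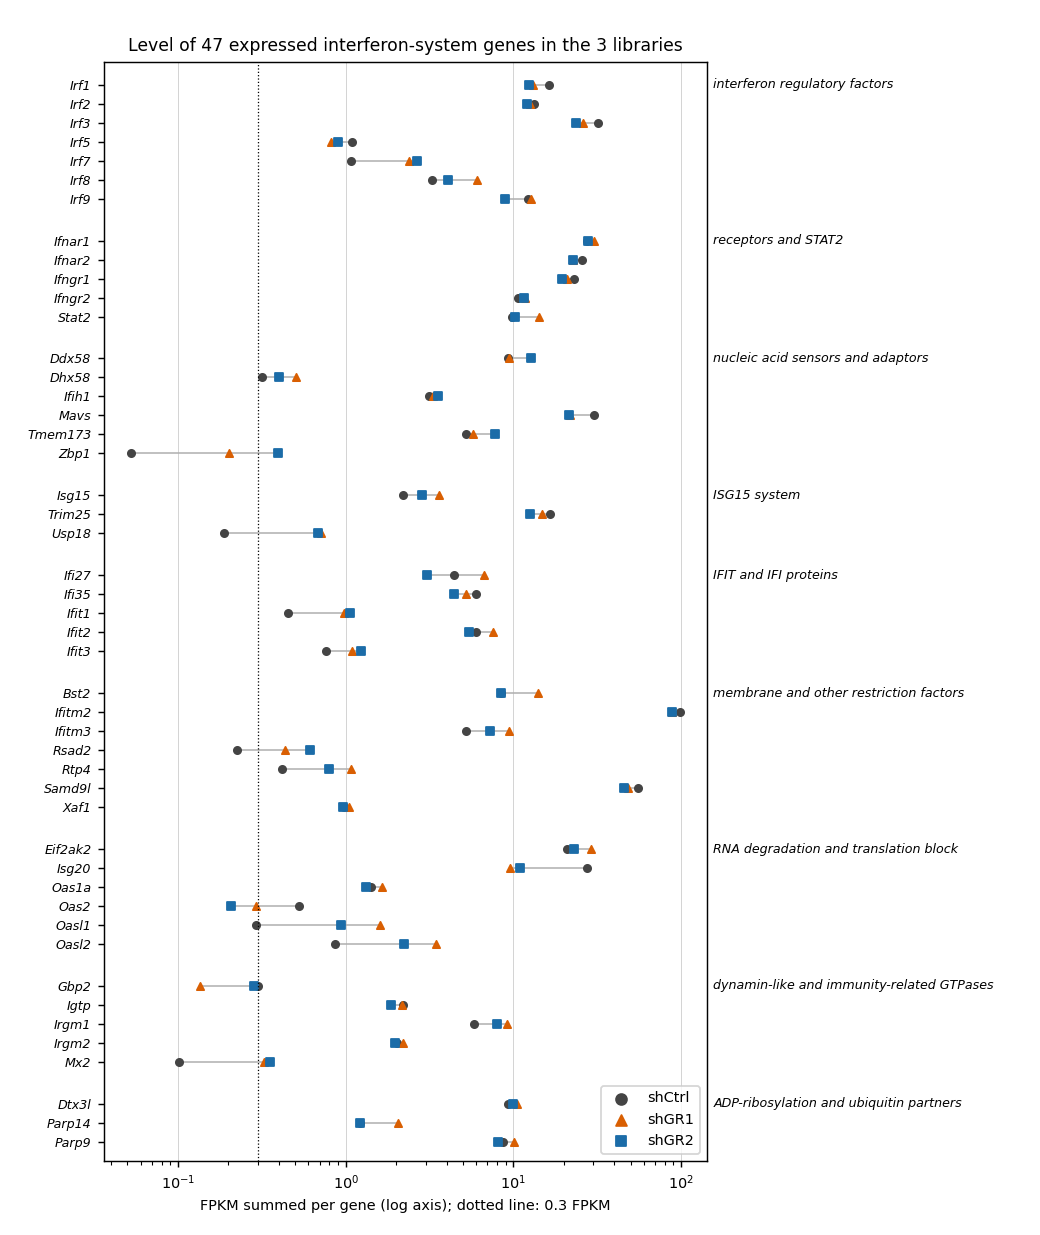
FPKM of the 47 expressed members (log axis) in shCtrl (grey circle), shGR1 (orange triangle) and shGR2 (blue square), grouped by role, with the 0.3 FPKM threshold as a dotted line. *Usp18*, *Zbp1*, *Mx2*, *Oasl1* and *Rsad2* have shCtrl left of the line and at least 1 knockdown library right of it, and *Isg20* has shCtrl at 27.4 FPKM with the knockdown libraries at 9.603 and 10.9 FPKM.

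The enzymes that degrade RNA or stop translation held differences past 1.5-fold in both directions, 2 higher and 2 lower of 6 expressed. *Isg20*, an exonuclease that degrades single-stranded RNA, was at 27.4 FPKM in shCtrl, 9.603 FPKM in shGR1 and 10.9 FPKM in shGR2. The knockdown libraries held 35.1% and 39.95% of the control level. It was the only member of at least 3 FPKM past 1.5-fold in both lines, and its levels correspond to about 727, 293 and 392 fragments. The mean log2 ratio was -1.42 ± 0.13 (SD, n = 2 knockdown lines), with limma's unadjusted p = 0.00186 and adjusted p = 0.224, the smallest of the members. Over the settings tried the adjusted p ran from 0.0286 to 0.395, and it was under 0.05 with robust moderation and with ratios centred on their median. *Isg20* lies on chromosome 7 from 78913424 to 78920396 (plus strand), and 0% of the 50-base stretches of its main transcript occur in another gene. Its window above holds 1 GAS match and it has no ISRE core in the 250 bases.

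The OAS family makes the short RNA that activates RNase L, and the OAS-like proteins share its fold without all having that activity. *Oasl1*, an inhibitor of the translation of *Irf7* mRNA in mouse, was at 0.291, 1.59 and 0.937 FPKM, about 13, 83 and 58 fragments. Its mean log2 ratio was 2.07 ± 0.54 (SD, n = 2 knockdown lines), with limma's unadjusted p = 0.0315 and adjusted p = 0.319 (0.17 to 0.442). The gene lies on chromosome 5 from 114923240 to 114937915 (plus strand). With the single highest transcript in place of the sum the mean log2 ratio was 0.67, since Oasl1-201 was at 0.256, 0.330 and 0.504 FPKM and Oasl1-202, with the same 511 residues, at 0.000199, 0.649 and 0.302 FPKM. Oasl1-203, a processed transcript with no annotated protein, was listed at 0 in shCtrl and shGR2 and at 0.443 FPKM in shGR1, 27.8% of the gene there.

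*Oasl2*, its neighbour from 114896936 to 114912234, was at 0.863, 3.44 and 2.24 FPKM, about 55, 250 and 191 fragments. The mean log2 ratio was 1.69 ± 0.44 (SD, n = 2 knockdown lines), with limma's unadjusted p = 0.0229 and adjusted p = 0.305 (0.119 to 0.434). The coding transcript Oasl2-201 was at 0.567, 1.47 and 1.08 FPKM, and Oasl2-205, annotated for nonsense-mediated decay, at 0.120, 1.30 and 0.545 FPKM. In both genes shGR1 was the highest library.

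*Oas2* went the other way at 0.525, 0.293 and 0.206 FPKM, about 51, 33 and 27 fragments. Its mean log2 ratio was -1.09 ± 0.36 (SD, n = 2 knockdown lines), with limma's unadjusted p = 0.158 and adjusted p = 0.49 (0.49 to 0.591), and it lies on chromosome 5 from 120730333 to 120749853 (minus strand). *Oas1a* was at 1.42, 1.66 and 1.32 FPKM, on both sides of the control, and 57.6% of its 50-base stretches also occur in another gene, mostly *Oas1g*, so it cannot be told apart well from that copy. The OAS-like pair was thus higher and *Oas2* lower on the same chromosome. *Eif2ak2*, which encodes PKR, the kinase that stops translation on binding double-stranded RNA, was at 20.8, 28.9 and 23.1 FPKM.

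The GTPases of interferon-treated cells attack viral particles or the vacuoles of intracellular parasites. *Mx2* was at 0.101, 0.325 and 0.352 FPKM, about 4, 14 and 18 fragments. Its mean log2 ratio was 1.74 ± 0.08 (SD, n = 2 knockdown lines), with limma's unadjusted p = 0.0875 and adjusted p = 0.412 (0.401 to 0.517). It lies on chromosome 16 from 97535308 to 97560900 (plus strand). The transcript Mx2-202, which the annotation classes as a polymorphic pseudogene, was at 0.0800, 0.172 and 0.0930 FPKM, and Mx2-203, a processed transcript, was listed at 0 in shCtrl and at 0.153 and 0.259 FPKM in the knockdown lines. The higher total therefore came mostly from a transcript with no annotated protein. Mx2-203 has 649 bases and Mx2-202 has 2421, so the ratio also depends on how fragments were divided between them.

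Among the immunity-related GTPases, *Irgm1*, a regulator of the others, was at 5.81, 9.20 and 7.95 FPKM, 1.58-fold and 1.37-fold above the control. The effector *Igtp* was at 2.18, 2.15 and 1.88 FPKM, a direction that not every scaling kept. *Irgm2* was at 2.02, 2.202 and 1.98 FPKM and shares 162 exon bases with *Igtp*. Neither effector was apart from the control in both lines, and 12.3% of the 50-base stretches of *Igtp* occur in other genes. *Gbp2*, a guanylate-binding protein, was at 0.301, 0.136 and 0.283 FPKM and passed the threshold only in shCtrl.

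The last group joins PARP9, an ADP-ribosyl transferase, with its ubiquitin ligase partner DTX3L and with PARP14. *Parp9* was at 8.65, 10.1 and 8.13 FPKM and *Dtx3l* at 9.34, 10.5 and 9.90 FPKM. Their exons overlap over 458 bases on opposite strands, so part of their reads cannot be told apart where strand was not used. *Parp14* was at 1.22, 2.05 and 1.22 FPKM. All 3 had shGR1 as the highest library and shGR2 near the control. Within *Parp9*, the longer form Parp9-203 (830 residues) was at 6.18, 5.30 and 4.49 FPKM and the shorter Parp9-201 (597 residues) at 1.21, 2.46 and 2.79 FPKM.

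**Figure D5:**
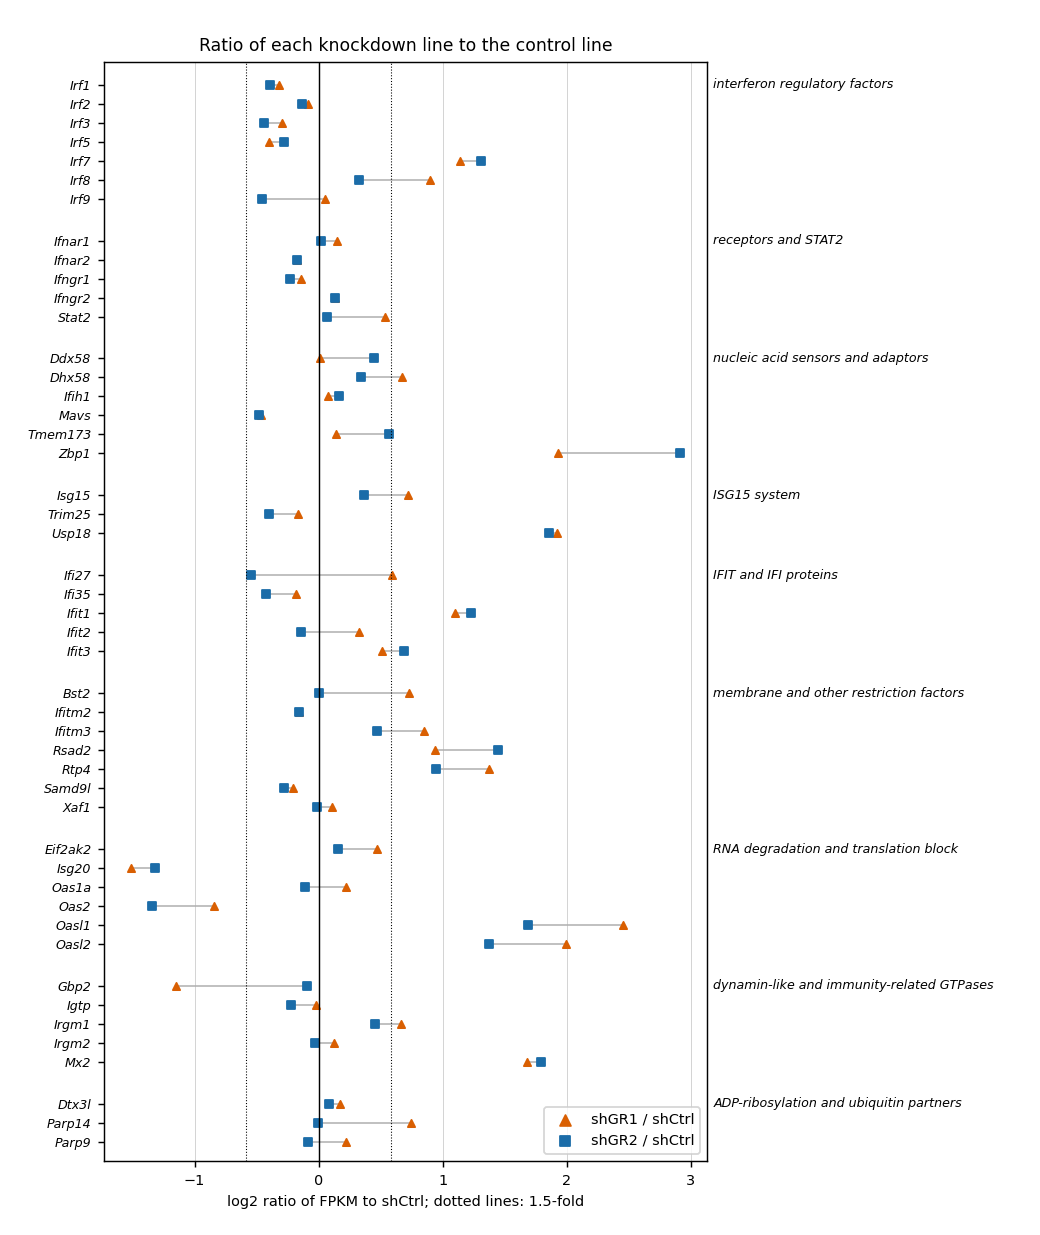
Log2 ratio of FPKM to shCtrl for the 47 expressed members in shGR1 (orange triangle) and shGR2 (blue square), grouped by role, with 1.5-fold as dotted lines. The 9 members above 1.5-fold in both lines are spread over 7 of the 9 role groups, and *Bst2*, *Parp14* and *Ifi27* show the lines apart.

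The remaining 7 members, *Irf4*, *Ifi44*, *Ifitm1*, *Mx1*, *Oas3*, *Gbp3* and *Gbp7*, were at most 0.193 FPKM in any library. *Ifitm1* was listed at 0 in shGR1. *Irf4* and *Gbp7* were at 0.00678 and 0.0250 FPKM in shCtrl, about 1 and 4 fragments, and no direction was read from any of them.

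The members with an ISRE core in the 250 bases and those without were set side by side. Of the 16 with a core, 13 were expressed: 7 were higher, 4 lower and 2 opposite, with median log2 ratios of 0.51 in shGR1 and 0.00 in shGR2. Of the 27 with a promoter entry and no core, 24 were expressed: 11 were higher, 10 lower and 3 opposite, with medians of 0.06 and -0.08. Of the 9 members past 1.5-fold higher, *Ifit1* and *Rsad2* hold a core, and 3 have an entry without one. In the set with a core, *Rsad2* passed 0.3 FPKM only in the knockdown lines and *Gbp2* only in shCtrl, so their directions were fixed by the threshold. *Bst2*, counted as higher there, was at the control level in shGR2. Among all expressed genes 31.8% were higher and 43.8% lower. These counts were not tested, and both sets contain genes in both directions.

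Of the interferon genes, 7 were looked up and none was over 0.3 FPKM. *Ifna1*, *Ifnb1*, *Ifng*, *Ifnl2* and *Ifnl3* were listed at 0 in all 3 libraries. *Ifne* was at 0.0705 FPKM in shCtrl and *Ifnk* at 0.0541 FPKM in shGR1, each listed at 0 in the other libraries. The receptor kinases *Jak1* (45.4, 47.6 and 48.5 FPKM) and *Tyk2* (9.94, 9.73 and 8.29 FPKM) were within 1.5-fold of the control.

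From a list of 104 other genes of the pathway, 102 were in the table and 82 were expressed. Of these 33 were lower, 22 higher and 27 opposite, beside the 43.8% and 31.8% of all expressed genes. Among those with a mean of at least 1 FPKM, the lower ones included *Oas1c* (2.08, 0.751 and 0.850 FPKM), an OAS relative. *Gbp8* was at 9.77, 5.11 and 5.57 FPKM, and *Il10rb*, a receptor chain for interferon lambda and IL-10, at 33.6, 18.7 and 22.7 FPKM. These 3 had the control as the highest library and their knockdown libraries close together. *Znfx1*, an RNA helicase that binds viral RNA, was at 16.6, 10.3 and 11.0 FPKM, and *Shisa5* at 60.0, 38.2 and 40.6 FPKM, in the same order.

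The higher ones with the largest ratios were *Ifi204*, a DNA sensor of the PYHIN family, at 1.23, 2.86 and 2.04 FPKM, and *Ifitm10* at 3.15, 9.15 and 4.14 FPKM. *Lgals3bp* was at 1.83, 2.75 and 2.91 FPKM, and *Traf3*, an adaptor between MAVS and the kinases that activate IRF3, at 10.2, 15.4 and 13.4 FPKM. The other two were *Tap2*, a peptide transporter for antigen presentation, at 2.43, 4.05 and 2.69 FPKM and *Tor1aip1* at 22.96, 28.6 and 25.7 FPKM. Of these 6, *Ifi204* and *Lgals3bp* were at least 1.5-fold higher in both lines. The chemokine gene *Cxcl10*, which was named after its values were seen, was at 0.265, 0.591 and 1.11 FPKM, and *Ccl5*, named likewise, was listed at 0 in shCtrl and at 0.233 and 0.639 FPKM in the knockdown lines.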

How the data were processed

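The authors deposited FPKM of 128603 transcripts for the 3 libraries of total RNA. Bcl2fastq 2.20, HISAT2 (no version), Cuffdiff, Cufflinks 2.2.1 and the build GRCm39 are named in the processing notes of the submitters. The deposited loci span the GENCODE M21 (GRCm38) position of 53 of the 54 members, so positions are on GRCm38. Whether the libraries were stranded is not stated. The ratios, log2 ratios, p-values and q-values that the authors deposited were not used. The members and gene lists were chosen with earlier results of these data known.

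FPKM were summed per gene symbol, and log2 ratios to shCtrl were taken with no pseudocount. Expressed members were named with their FPKM, and those at least 1.5-fold in the same direction in both lines also with a mean log2 ratio and limma's p. The same values are given for *Irf3* and *Mavs*, which were not past 1.5-fold but passed the unadjusted test, and for *Uba7*, which is no member. Members under the threshold were listed once. Of the other pathway genes, up to 6 in each direction were named if they averaged 1 FPKM or more. Limma 3.58.1 (R 4.3.3) took log2(FPKM + 0.1), its trend option set to mean abundance, and Benjamini-Hochberg adjustment was made over 15438 genes, with the lone control assumed to vary like the knockdown lines. Nothing shows that the lines were cultured more than once, so a p-value measures the spread between these libraries. Tested on simulated data of 15438 genes, the fit found 0% of the genes given a 2-fold change, 10.7% of those given 4-fold, 25.3% of those given 8-fold and 30.7% of those given 16-fold. The depth is known only roughly, so no counting intervals are given.

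Alternatives were a pseudocount of 1, robust moderation, ratios centred on their median, quantile normalization, removal of the length trend, other thresholds, the highest transcript in place of the sum and leaving out each knockdown line. The threshold in shCtrl alone and the division at 3 FPKM were chosen after seeing the data. Motifs were searched on both strands. Sequence shared between genes was counted as 50-base stretches of the most abundant transcript of each member that occur in transcripts of other genes.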

Additional observations from a re-analysis of the deposited data

How the results depend on the processing

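Leaving out a knockdown line (no single line has a replicate) gave 15 to 23 lower members and 24 to 32 higher ones, the values without shGR1 being 23 and 24, and limma could not be fitted without a line because no residual degree of freedom is left. Limma's calls over all genes, 0 in each direction as reported, were 82 lower and 28 higher with robust moderation and 155 lower and 66 higher with ratios centred on their median. *Isg20* was the 1 member called in each of these. The number of higher members with an unadjusted p under 0.05 was 7 after quantile normalization against 4 as reported. The counts of the members otherwise stayed within 1.5 times. Their median log2 ratio in shGR2, 0.00 as reported, was -0.01 with a threshold of 1 FPKM and -0.03 with the threshold in shCtrl alone. It was 0.07 with ratios centred on their median and 0.10 after quantile normalization. With the length trend removed it was 0.09, and without a threshold 0.08. The median in shGR2 thus has no stable sign. Of 42 mean log2 ratios of the 11 members past 1.5-fold, recomputed with both lines kept, 34 moved by less than the spread between the lines and 8 by more, and none changed sign. With the highest transcript in place of the sum *Oasl1* was at 0.67 and *Rtp4* at 2.10. No paired analysis was possible because the control has 1 library. Depth limits the rarest expressed members, *Zbp1*, *Mx2* and *Usp18*, whose control levels rest on 2, 4 and 8 fragments by a rough estimate. That estimate takes a single length per gene, so the numbers for *Zbp1* and *Mx2* are less sure. The ratios of these genes also depend on how fragments were divided between short and long transcripts.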
